A study of Mus musculus with 8 samples.

Results

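The data described here are the transcript levels of 10 mouse genes of fibroblast growth factor (FGF) signalling, namely the ligand Fgf4, the receptors Fgfr1, Fgfr2 and Fgfr3, and 6 genes that respond to the kinase ERK or restrain it (Spry2, Spry4, Dusp6, Etv4, Etv5 and Egr1). They were picked out by symbol, with earlier results of these data known, and all 10 were found among the 24354 genes of the expression table. All 10 had a mean of at least 1 FPKM (fragments per kilobase of transcript per 1000000 mapped fragments) in at least 1 group, as did 13239 genes in all. The study fused extended pluripotent stem cells (EPSCs) with neural stem cells (NSCs) and sequenced poly-A RNA of both parents, of the hybrid cells and of embryonic stem cells (ESCs), with 2 libraries in each of the 4 groups.

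The ESCs were wild-type E14 cells kept in medium with serum and LIF on mouse embryonic fibroblast feeders. The EPSCs were wild-type cells of BL6 embryos at passage 15, grown on feeders in LCDM medium, which contains LIF, the GSK3 inhibitor CHIR99021, dimethindene and minocycline. The NSCs carried the OG2 and ROSA26 transgenes, a GFP reporter driven by the distal enhancer of Oct4 and a ubiquitous lacZ, and were grown without feeders in medium with EGF and basic FGF. The EPSC-NSC hybrid cells, at passage 10, came from polyethylene glycol fusion and picking for Oct4-GFP, had a near-tetraploid DNA content, carried the NSC transgenes and were grown in LCDM medium on feeders. Every group was a single line, so the spread and the p-values describe repeated libraries and not independent derivations or fusions. The NSCs were the group that received added EGF and basic FGF, so cell type and medium cannot be told apart in any comparison with them. ESCs differed from EPSCs and hybrid cells in both line and medium, and hybrid cells differed from EPSCs in fusion, ploidy and passage. Those differences cannot be told apart either.

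FGF ligands bind receptor tyrosine kinases on the cell surface, which pass the signal through adaptor proteins to RAS, RAF, MEK and ERK. Active ERK induces immediate-early genes such as Egr1 and the ETS factors Etv4 and Etv5, and it also induces its own inhibitors: the Sprouty proteins act upstream of ERK and the phosphatase Dusp6 removes phosphate from ERK itself. In pluripotent cells of the mouse, Fgf4 is made by the cells themselves and its signal prepares them for differentiation, whereas neural stem cells are maintained in culture with FGF and EGF supplied in the medium.

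The promoters of 4 members are shown because their genes had contrasting levels: Fgf4 was listed at 0 in NSCs, whereas Fgfr3, Spry2 and Dusp6 were highest there. Each is the 250 bases before the start of the gene on its own strand, from RefSeq on GRCm38.p6, read 5′ to 3′. In the Fgf4 window capitals mark overlapping copies of TATATA, and in the others they mark GGAA or its reverse complement TTCC, the core letters that ETS factors bind.
Fgf4, chr7:144861136-144861385, plus strand: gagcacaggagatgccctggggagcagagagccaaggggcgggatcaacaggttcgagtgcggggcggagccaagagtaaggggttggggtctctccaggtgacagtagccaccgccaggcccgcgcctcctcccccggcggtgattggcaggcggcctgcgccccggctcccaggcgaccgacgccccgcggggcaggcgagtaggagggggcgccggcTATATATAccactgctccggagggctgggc
Fgfr3, chr5:33721474-33721723, plus strand: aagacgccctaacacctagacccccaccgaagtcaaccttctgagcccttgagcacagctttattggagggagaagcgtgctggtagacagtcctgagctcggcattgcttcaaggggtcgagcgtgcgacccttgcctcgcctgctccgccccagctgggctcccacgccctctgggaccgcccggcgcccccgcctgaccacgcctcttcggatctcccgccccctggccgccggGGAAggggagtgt
Spry2, chr14:105896820-105897069, minus strand: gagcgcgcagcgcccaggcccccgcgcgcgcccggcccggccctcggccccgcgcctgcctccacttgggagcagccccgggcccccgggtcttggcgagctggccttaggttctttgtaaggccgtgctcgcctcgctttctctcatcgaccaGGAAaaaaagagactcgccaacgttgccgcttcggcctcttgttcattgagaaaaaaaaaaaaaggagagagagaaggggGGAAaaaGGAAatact
Dusp6, chr10:99262981-99263230, plus strand: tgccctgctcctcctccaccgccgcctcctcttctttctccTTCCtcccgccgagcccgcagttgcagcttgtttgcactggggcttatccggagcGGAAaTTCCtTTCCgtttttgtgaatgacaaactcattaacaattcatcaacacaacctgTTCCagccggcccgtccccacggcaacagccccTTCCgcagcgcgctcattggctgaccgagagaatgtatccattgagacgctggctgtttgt

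The Dusp6 window held 6 copies of GGAA counted on both strands, the Spry2 window 3, the printed Fgfr3 window 1 and the Fgf4 window 0, and a second Fgfr3 window, from another start, held 5. GGAA occurs in 93.5% of 32841 mouse promoter windows of the same length, with a median of 3 copies, so its presence alone does not set these promoters apart. The Fgf4 window held TATATA starting 30 and 28 bases before the gene start, letters found in 5.25% of all windows. All 4 windows were richer in G and C (71.2% in Fgf4, 66.8% in Fgfr3, 62.4% in Spry2 and 56.4% in Dusp6) than the median window, at 52.4%. In all, 8 windows of 6 members were read, including those of Fgfr2 and Etv5. Member windows on chromosome 18 were left out, so Spry4 and Egr1 were not searched, though the background of all windows kept that chromosome. Fgfr1 and Etv4 had no window in the promoter set. The longer ETS motifs CCGGAAGT and ACCGGAAG and the CREB motif TGACGTCA were found in 0 of the 8 windows on either strand. Those 3 motifs occur in 2.88%, 1.72% and 1.55% of all windows, and the 2 ETS motifs overlap each other and GGAA.

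Marker genes set the NSC libraries apart as labelled, and were not used to tell ESCs, EPSCs and hybrid cells from one another. All 10 pluripotency markers, Pou5f1 and Nanog among them, were above a mean of 1 FPKM in ESCs, EPSCs and hybrid cells and 0 of 10 were in NSCs, whereas of the 10 NSC markers 9 passed that level in NSCs, 6 did so in hybrid cells, 5 in EPSCs and 4 in ESCs. The NSC markers summed to 4627 to 4675 FPKM in NSCs and to 16.2 to 32.6 FPKM elsewhere, and Nkx6-2 alone was lower in NSCs (0.663 FPKM) than in the other groups (3.13 to 5.43 FPKM). A list of 12 genes typical of fibroblasts, the cell type of the feeders, was not even: it summed to 12.9 to 15.0 FPKM in the ESC and NSC libraries, to 90.6 to 94.0 FPKM in EPSCs, and to 358.9 and 266.0 FPKM in hybrid replicates 1 and 2. Col1a1 had means of 14.7 FPKM in EPSCs and 53.6 FPKM in hybrid cells, and 3 of the 12 were listed at 0 in NSCs. The list was not low throughout in NSCs, which had no feeders. Prrx1 was highest there, at 7.03 FPKM beside 6.20 FPKM in hybrid cells and 1.94 FPKM in EPSCs. Fbn1 was at 3.89 FPKM in NSCs, 2.27 FPKM in EPSCs and 7.28 FPKM in hybrid cells. Whether these transcripts came from feeder cells or from the stem cells was not tested, and 1 of the 12, Postn, was used by the study to mark EPSCs. This list was higher in hybrid cells than in EPSCs alongside every hybrid result below, and its part in them was not tested. In such bulk RNA, fewer cells with a transcript and less transcript per cell cannot be told apart. The depth, inferred from the steps of the FPKM values, was between 22.0 and 32.6 (unit, 1000000 fragments), and the FPKM values of a library summed to between 415200 and 653800, lowest in NSCs.

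Fgf4 (chromosome 7, 144861386 to 144865245, GRCm38), the ligand, was a transcript of the 3 pluripotent groups. Its levels were 86.0 and 86.0 FPKM in ESCs, 114.0 and 97.1 FPKM in EPSCs and 59.6 and 44.6 FPKM in hybrid cells, and it was listed at 0 in both NSC libraries. Both hybrid libraries lay below all libraries of ESCs and EPSCs and far above NSCs. The hybrid mean of 52.1 ± 10.7 FPKM (SD, n = 2) was 2.03-fold lower than the EPSC mean of 105.5 ± 11.9 FPKM, a log2 difference of -1.01 (SE 0.13, adjusted p = 0.00129). Against ESCs the hybrid difference was -0.73 (SE 0.13, adjusted p = 0.00217). In order, the level fell from EPSCs to ESCs, hybrid cells and NSCs, and of these neighbours only EPSCs and ESCs were not separated by the test (log2 difference 0.29, 95% interval -0.03 to 0.60, adjusted p = 0.0979). With only those 2 groups fitted, the same difference was called (adjusted p = 0.0457). Against a level listed at 0 no fold is given. A count of 3 fragments would correspond there to 0.0373 and 0.0368 FPKM in replicates 1 and 2, which covers counting error only, and the pluripotent groups each differed from NSCs in the fit (adjusted p = 7.2e-09 for EPSCs, 9.2e-09 for ESCs and 1.5e-08 for hybrid cells).

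**Figure D1:**
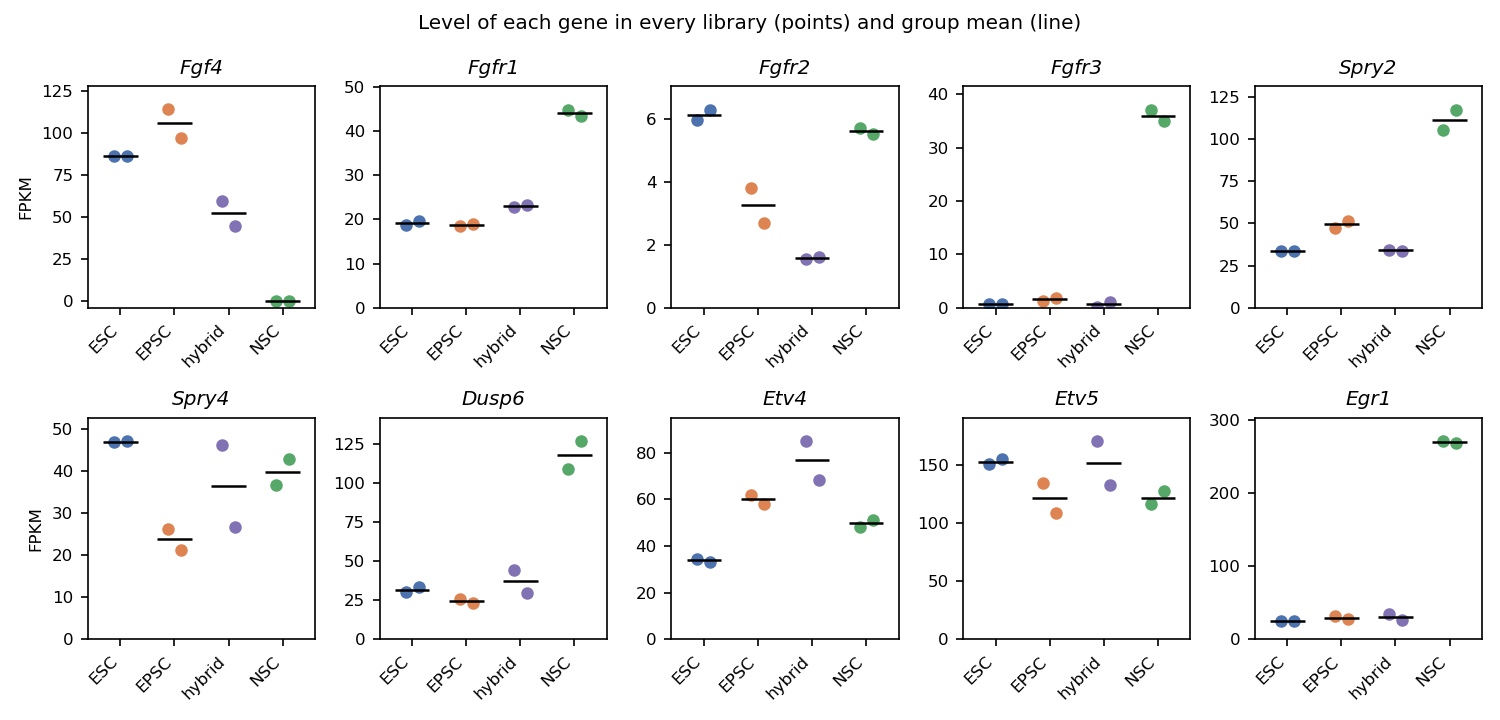
Levels of the 10 genes, one panel a gene, in FPKM on a linear vertical axis, with each point a library of ESCs, EPSCs, hybrid cells or NSCs and each short line the mean of the 2 libraries of a group. Fgf4 is at 0 in NSCs and between 44.6 and 114.0 FPKM elsewhere, while Egr1, Dusp6, Spry2, Fgfr1 and Fgfr3 stand highest in NSCs.

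The receptors differed in which groups held them. Fgfr1 (chromosome 8, 25518759 to 25575718), a main FGF receptor of epiblast and neural cells, was present in every library. It stood at 44.9 and 43.5 FPKM in NSCs, 22.9 and 23.3 FPKM in hybrid cells, 18.8 and 19.6 FPKM in ESCs and 18.5 and 19.1 FPKM in EPSCs. The hybrid libraries lay between the parents and did not overlap either of them, while ESCs and EPSCs overlapped (log2 difference -0.03, 95% interval -0.16 to 0.10, adjusted p = 0.647). Fgfr1 was higher in hybrid cells than in EPSCs by a log2 value of 0.29 (SE 0.06, adjusted p = 0.0056), a call that was lost when only those 2 groups were fitted (adjusted p = 0.0582), and the fibroblast list was also higher in hybrid cells. It was lower than in NSCs by 0.91 on the log2 scale (SE 0.06, adjusted p = 1.8e-06), and EPSCs were 2.36-fold below NSCs (adjusted p = 4.2e-07).

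Fgfr2 (chromosome 7, 130162451 to 130266808), a receptor associated with primitive endoderm and trophoblast, was lowest in the hybrid cells. Its levels were 5.95 and 6.29 FPKM in ESCs, 5.70 and 5.53 FPKM in NSCs, 3.81 and 2.695 FPKM in EPSCs and 1.55 and 1.61 FPKM in hybrid cells. No hybrid library reached any library of the other 3 groups. The hybrid mean of 1.58 ± 0.0391 FPKM (SD, n = 2) lay below both parents, by a log2 value of -0.71 against EPSCs (SE 0.12, adjusted p = 0.00386) and of -1.36 against NSCs (SE 0.12, adjusted p = 2e-05), the latter a 3.55-fold difference of the means. The difference of EPSCs from NSCs, -0.65 (SE 0.12, adjusted p = 0.00153), lost its call with quantile normalization (-0.22, adjusted p = 0.153). Against ESCs the hybrid mean was 3.87-fold lower (log2 difference -1.46, SE 0.12, adjusted p = 5.3e-05), and EPSCs were also below ESCs by 0.76 (SE 0.12, adjusted p = 0.00152). The uppermost neighbours, ESCs and NSCs, were not separated (0.11, 95% interval -0.19 to 0.40, adjusted p = 0.445), and that difference became -0.39 (adjusted p = 0.0203) when each library was scaled to the same sum and 0.49 (adjusted p = 0.00898) with quantile normalization. Relative to the median gene of the comparison, Fgfr2 was at 0.07 both as deposited and after the sum scaling, and at 0.43 with quantile normalization.

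Fgfr3 (chromosome 5, 33721724 to 33737068), a receptor of neural progenitors and glia, was high in NSCs alone among these groups. It was measured at 37.1 and 34.9 FPKM in NSCs, 1.19 and 1.88 FPKM in EPSCs, 0.665 and 0.735 FPKM in ESCs and 0.210 and 1.06 FPKM in hybrid cells. Every NSC library lay far above every other library, while the 2 hybrid libraries lay on either side of the ESC pair. The NSC mean of 36.0 ± 1.53 FPKM (SD, n = 2) was 56.8-fold above hybrid cells (log2 difference of hybrid cells from NSCs -4.55, SE 0.24, adjusted p = 8.2e-07), 51.4-fold above ESCs (adjusted p = 9.8e-07) and 23.5-fold above EPSCs (adjusted p = 2e-06). The hybrid libraries correspond to about 20.3 and 96.8 fragments on the longest annotated transcript at the inferred depth, and the gap between them was not tested. The fold above hybrid cells was 34 without hybrid replicate 1 and 172 without hybrid replicate 2. Hybrid cells against EPSCs gave -0.67 (SE 0.24, adjusted p = 0.0562), and -0.85 (adjusted p = 0.0298) with quantile normalization. Without hybrid replicate 2 the same difference was -1.05 (adjusted p = 0.00413), and without replicate 1 it was -0.29 (adjusted p = 0.207).

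Put together, the receptor transcripts of hybrid cells were mostly Fgfr1. In the sum of Fgfr1 to Fgfr4, Fgfr1 made up 91.4% and 88.7% in the hybrid libraries, 77.3% and 79.2% in EPSCs, 70.5% and 71.3% in ESCs and 51.1% and 51.8% in NSCs. The 4 groups did not overlap in this share. Fgfr2 made up 22.6% ± 0.352 (SD, n = 2) in ESCs, 13.6% ± 3.38 in EPSCs, 6.53% ± 0.0567 in NSCs and 6.17% ± 0.0647 in hybrid cells. Fgfr3 took 41.9% ± 0.513 of the sum in NSCs and at most 7.82% of it in any other library. The sum itself was 85.9 ± 2.61 FPKM in NSCs, 27.1 ± 0.646 FPKM in ESCs, 25.7 ± 0.904 FPKM in hybrid cells and 24.0 ± 0.160 FPKM in EPSCs. No test was run on these shares, which are given as values of each library.

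**Figure D2:**
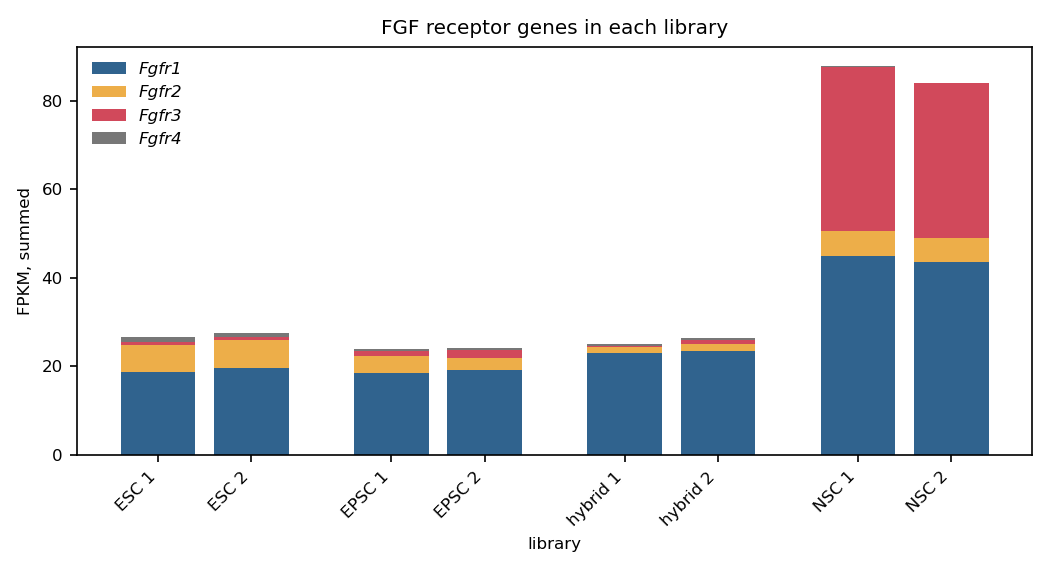
FGF receptor transcripts in each of the 8 libraries, as stacked bars of the FPKM of Fgfr1, Fgfr2, Fgfr3 and Fgfr4. Fgfr1 fills 88.7% to 91.4% of the bar in hybrid cells, and Fgfr3 holds 41.6% to 42.3% of it in NSCs.

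Of the genes that restrain ERK, Spry2 (chromosome 14, 105891947 to 105896819), a Sprouty inhibitor of receptor tyrosine kinase signalling, was highest in NSCs. It was at 105.3 and 117.4 FPKM in NSCs, 47.5 and 51.7 FPKM in EPSCs, 34.5 and 33.5 FPKM in hybrid cells and 33.8 and 33.5 FPKM in ESCs. The hybrid libraries fell below both parents and overlapped with ESCs. Hybrid cells were lower than EPSCs by a log2 value of -0.53 (SE 0.07, adjusted p = 0.00125) and 3.28-fold lower than NSCs (-1.68, SE 0.07, adjusted p = 2.3e-07). Against ESCs the hybrid difference was 0.01, with a 95% interval of -0.15 to 0.17 (adjusted p = 0.885), and it turned to -0.02, -0.03 and -0.05 under the 3 other scalings. EPSCs lay above ESCs by 0.54 (SE 0.07, adjusted p = 0.00044).

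Dusp6 (chromosome 10, 99263231 to 99267489), the cytoplasmic phosphatase of ERK, was likewise highest in NSCs. Its values were 108.7 and 126.7 FPKM in NSCs, 44.6 and 29.6 FPKM in hybrid cells, 30.1 and 33.3 FPKM in ESCs and 25.8 and 23.0 FPKM in EPSCs. The hybrid libraries were above both EPSC libraries but spanned the ESC pair. NSCs exceeded EPSCs 4.82-fold (log2 difference of EPSCs from NSCs -2.22, SE 0.18, adjusted p = 8.9e-06), ESCs 3.71-fold (adjusted p = 2.7e-05) and hybrid cells 3.17-fold (adjusted p = 5e-05). Between hybrid cells and EPSCs the difference was 0.56 (SE 0.18, adjusted p = 0.0382). Leaving out any 1 library other than hybrid replicate 2 ended that call. The difference was 0.27 without hybrid replicate 1 and stayed at 0.56 without a library of ESCs or NSCs. At that same 0.56 the call also ended with no filter (adjusted p = 0.078) and with only those 2 groups fitted (adjusted p = 0.128).

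Spry4 (chromosome 18, 38586247 to 38601347), another Sprouty inhibitor, did not share the NSC peak of Spry2. It was at 46.9 and 47.0 FPKM in ESCs, 36.7 and 42.9 FPKM in NSCs, 46.1 and 26.6 FPKM in hybrid cells and 26.2 and 21.2 FPKM in EPSCs. EPSCs were the lowest group, and the hybrid libraries lay on either side of the NSC pair. EPSCs were below ESCs by 0.96 on the log2 scale (SE 0.23, adjusted p = 0.00837) and below NSCs by 0.73 (SE 0.23, adjusted p = 0.0182). The latter call was lost without EPSC replicate 2 (adjusted p = 0.0995) or NSC replicate 2 (adjusted p = 0.115). Hybrid cells against EPSCs gave 0.55 (SE 0.23, adjusted p = 0.0879), which became 0.94 (adjusted p = 0.00346) without hybrid replicate 2 and 0.17 (adjusted p = 0.371) without hybrid replicate 1.

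Among the transcription factors downstream of ERK, Etv4 (chromosome 11, 101769747 to 101785310), an ETS factor of the PEA3 group, was highest in hybrid cells. Its levels were 84.9 and 68.4 FPKM in hybrid cells, 62.0 and 58.0 FPKM in EPSCs, 48.2 and 51.3 FPKM in NSCs and 34.4 and 33.2 FPKM in ESCs. The 4 groups did not overlap. Hybrid cells were 2.27-fold above ESCs (log2 difference 1.15, SE 0.10, adjusted p = 5.6e-05), and EPSCs were above ESCs by 0.81 (SE 0.10, adjusted p = 0.00037). The step from EPSCs up to hybrid cells was 0.34 (SE 0.10, adjusted p = 0.0276), and leaving out any library but hybrid replicate 2 ended that call. Without hybrid replicate 1 the step was 0.19. At the same 0.34 the call also ended with no filter (adjusted p = 0.0528) and with only those 2 groups fitted (adjusted p = 0.114). Against NSCs the hybrid difference was 0.61 (SE 0.10, adjusted p = 0.00062) as deposited and -0.01 with every library scaled to the same sum. The difference of EPSCs from NSCs was 0.26 (SE 0.10, adjusted p = 0.0362). It turned to -0.34 under that scaling, a call in the opposite direction (adjusted p = 0.00817), and to -0.02 after quantile normalization. The call as deposited was also lost with median-of-ratios scaling (0.14, adjusted p = 0.187) and with no filter (0.26, adjusted p = 0.0606). It was lost too without any 1 library of ESCs, NSCs or EPSCs, where the difference was between 0.22 and 0.31. Scaling to one sum moved the median gene against NSCs to between -0.50 and -0.46, and relative to the median gene Etv4 was higher in hybrid cells than in NSCs by 0.55 as deposited and by 0.50 after scaling, and higher in EPSCs than in NSCs by 0.19 and 0.14.

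Etv5 (chromosome 16, 22381313 to 22439570), a close relative of Etv4, was the most even of the 10 genes. It was measured at 150.8 and 154.7 FPKM in ESCs, 170.2 and 132.4 FPKM in hybrid cells, 116.1 and 127.3 FPKM in NSCs and 134.7 and 108.3 FPKM in EPSCs. The hybrid libraries spanned the ESC pair and the EPSC libraries spanned the NSC pair. The 6 comparisons of Etv5 as deposited did not pass the test (adjusted p from 0.0552 to 0.952). EPSCs against ESCs, at -0.34 as deposited (adjusted p = 0.0663), was called under the 3 other scalings (adjusted p = 0.0298 with median of ratios, 0.00893 with quantile and 0.0246 with the sum). The difference of EPSCs from NSCs was -0.01 (95% interval -0.33 to 0.31, adjusted p = 0.952), which became -0.53 (adjusted p = 0.00346) with quantile normalization and -0.62 (adjusted p = 0.00165) with sum scaling. That of hybrid cells from EPSCs was 0.31 (95% interval -0.01 to 0.63, adjusted p = 0.103). It was 0.47 without EPSC replicate 1, 0.16 without EPSC replicate 2, 0.13 without hybrid replicate 1 and 0.49 without hybrid replicate 2. Differences of hybrid cells and ESCs from NSCs, 0.30 and 0.33 as deposited, turned to -0.32 and -0.22 when scaled to one sum and to -0.22 and -0.04 with quantile normalization. Relative to the median gene, EPSCs differed from NSCs in Etv5 by -0.09 as deposited, -0.14 after the sum scaling and -0.60 with quantile normalization. The differences of hybrid cells and ESCs were 0.24 and 0.30 as deposited and 0.19 and 0.24 after the sum scaling relative to that gene, but -0.28 and -0.10 with quantile normalization.

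Egr1 (chromosome 18, 34861207 to 34864956), an immediate-early zinc-finger factor, had the largest fold difference between NSCs and the other groups among the 6 ERK-related genes. It stood at 270.3 and 267.6 FPKM in NSCs, 33.7 and 26.2 FPKM in hybrid cells, 31.5 and 27.5 FPKM in EPSCs and 24.5 and 24.5 FPKM in ESCs. Both NSC libraries were far above the other 6, and the hybrid libraries spanned the EPSC pair. The NSC mean of 269 ± 1.89 FPKM (SD, n = 2) was 11.0-fold above ESCs (log2 difference of ESCs from NSCs -3.40, SE 0.11, adjusted p = 8.2e-08), 9.12-fold above EPSCs (adjusted p = 1.1e-07) and 8.97-fold above hybrid cells (adjusted p = 1.2e-07). Between hybrid cells and EPSCs the difference was 0.02, with a 95% interval of -0.25 to 0.28 (adjusted p = 0.931), and it turned to -0.16 without hybrid replicate 1.

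The first comparison asked how the hybrid cells differed from the pluripotent parent. Of the 10 genes, 3 were higher in hybrid cells than in EPSCs (Fgfr1, Dusp6 and Etv4) and 3 were lower (Fgf4, Fgfr2 and Spry2), while 4 did not pass the test. Among all tested genes 22.5% were called higher and 21.9% lower, and the median log2 difference was 0.15 over the 10 genes and 0.00 over all genes. The study names thresholds of 3 FPKM and 3-fold in its methods and of 2 FPKM and 2-fold beside its counts. The fold rule here is the larger mean over 3 FPKM and more than 3 times the smaller, which 0 of the 10 and 1.59% of all genes passed. With both thresholds at 2 it was passed by Fgf4 and Fgfr2, and the share of all genes at 2 is not given here. The number called, 6 of 10 beside 44.4% of all genes, was 9 without hybrid replicate 2 (41.8% of all genes) and 4 without hybrid replicate 1 (41.3%), and it was 3 when only those 2 groups were fitted (21.2%).

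Set against the neural parent, hybrid cells had 2 of the 10 genes higher (Fgf4 and Etv4) and 6 lower (Fgfr1, Fgfr2, Fgfr3, Spry2, Dusp6 and Egr1), with Spry4 and Etv5 not called as deposited. Spry4 was called lower than in NSCs with sum scaling (-0.79, adjusted p = 0.0101) and without hybrid replicate 1 (-0.56, adjusted p = 0.00842). Etv5 was called higher without hybrid replicate 2 (0.48, adjusted p = 0.0107) or either EPSC library (0.30, adjusted p = 0.0465 and 0.0469), and lower with sum scaling (-0.32, adjusted p = 0.0397). Sum scaling also moved the median gene here, to -0.50. Relative to that gene, Spry4 was at -0.23 as deposited and -0.28 after the sum scaling, and Etv5 was at 0.24 and 0.19. Over all tested genes 44.5% were called higher and 42.0% lower in this comparison. The fold rule was passed by 6 of the 10 genes, 5 of them lower in hybrid cells and 1, Fgf4, higher, against 29.0% of all genes in both directions. The median log2 difference was -1.13 for the 10 genes and 0.06 for all genes.

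The parents themselves differed in 9 of the 10 genes, 2 higher in EPSCs than in NSCs (Fgf4 and Etv4) and 7 lower, with Etv5 alone not called, and the calls of Fgfr2, Spry4 and Etv4 were lost under the alternatives given above for each. All tested genes gave 45.2% higher and 41.0% lower, and 28.8% passed the fold rule, as did 4 of the 10 genes (Fgf4, Fgfr3, Dusp6 and Egr1). ESCs against NSCs gave 1 gene higher (Fgf4) and 6 lower (Fgfr1, Fgfr3, Spry2, Dusp6, Etv4 and Egr1), where all genes gave 42.8% higher and 41.9% lower. With only those 2 groups fitted, Etv5 (0.33, adjusted p = 0.00276) and Spry4 (0.24, adjusted p = 0.0351) were called higher too. The fold rule was passed there by Spry2 and the same 4 genes, 5 of 10, against 27.6% of all genes. Etv4 was thus above NSCs in EPSCs and below NSCs in ESCs as deposited, although the EPSC call did not hold under the alternatives given above for Etv4. The comparisons with NSCs share the same 2 NSC libraries.

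The last comparisons were made between ESCs and the other pluripotent groups. EPSCs against ESCs gave 2 of the 10 genes higher (Spry2 and Etv4) and 2 lower (Fgfr2 and Spry4), where all tested genes gave 33.7% higher and 27.3% lower, and 0 of 10 passed the fold rule against 4.72% of all genes. Hybrid cells against ESCs also gave 2 higher (Fgfr1 and Etv4) and 2 lower (Fgf4 and Fgfr2), where all genes gave 35.3% higher and 30.2% lower. Fgfr2 was the 1 gene past the fold rule, which 6.68% of all genes passed. In EPSCs against ESCs the number called was 9 without either hybrid library (65.3% and 65.5% of all genes), since those libraries enter the shared estimate of spread, and in hybrid cells against ESCs it was 7 without hybrid replicate 2 (64.1% of all genes).

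**Figure D3:**
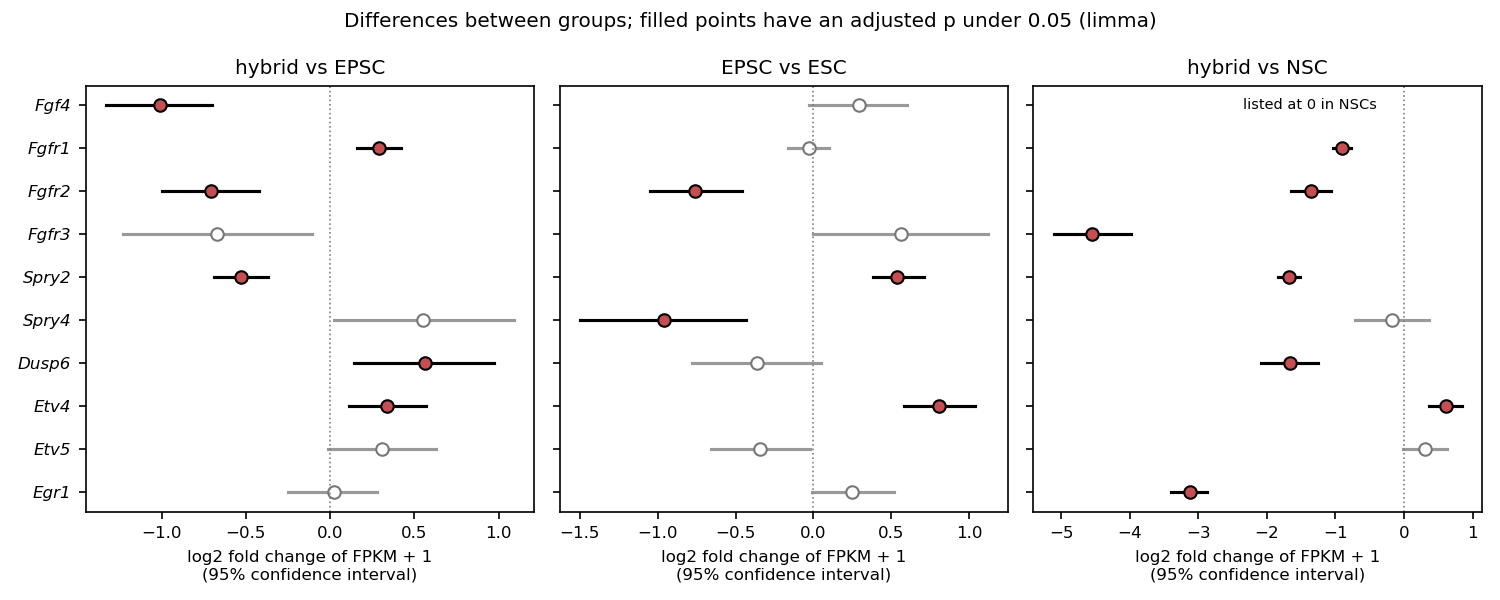
Log2 fold change of FPKM + 1 of the 10 genes, with 95% intervals as horizontal lines, in hybrid cells against EPSCs, EPSCs against ESCs and hybrid cells against NSCs, where filled points have an adjusted p under 0.05 and Fgf4 is not drawn against NSCs. Against NSCs, Fgfr3 lies at -4.55 and Egr1 at -3.13, whereas in the other panels every point lies between -1.01 and 0.81.

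Relative to the 2 parents, hybrid means on the log2 scale lay between EPSCs and NSCs for 5 of the 10 genes, nearer to EPSCs for Fgf4, Fgfr1, Dusp6 and Egr1 and nearer to NSCs for Spry4. The position of Spry4 rests on hybrid libraries far apart: without replicate 1 it was nearer to EPSCs (0.17 from EPSCs and -0.56 from NSCs), and without replicate 2 it was above both parents (0.94 and 0.21). That of Egr1 rests on a difference of 0.02 from EPSCs. It became -0.16 without hybrid replicate 1 and -0.08 without EPSC replicate 2, which placed Egr1 below both parents. For Fgf4 the position holds on the log2 scale only, since its hybrid mean of 52.1 FPKM was about midway between 105.5 FPKM in EPSCs and 0 in NSCs. They lay below both parents for Fgfr2, Fgfr3 and Spry2 and above both for Etv4 and Etv5. Of these 5 outside the parents' range, Fgfr2, Spry2 and Etv4 were called against each parent as deposited, with the limits on the Etv4 calls given above. Fgfr3 was called against NSCs but not EPSCs, and Etv5 was called against neither. The hybrid level of Etv5 fell below that of NSCs with sum scaling (-0.32) and with quantile normalization (-0.22). The share of all genes in each position is not given here, so these counts cannot be called many or few.

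The hybrid libraries differed from each other in some of these genes and not in others. Between hybrid replicates 1 and 2 the log2 difference was 0.77 for Spry4, -0.77 for Fgfr3, 0.58 for Dusp6, 0.41 for Fgf4, 0.36 for Etv5, 0.35 for Egr1 and 0.31 for Etv4. A gap of at least that size was found in 1.22% of all tested genes for Spry4, 1.25% for Fgfr3 and 3.04% for Dusp6. For Spry2, Fgfr1 and Fgfr2 the gap was 0.04, -0.03 and -0.03. The EPSC libraries had a larger gap than the hybrid libraries in Fgfr2, at 0.38, and a gap of -0.40 in Fgfr3. The median absolute gap over the 10 genes was 0.36 in hybrid cells, 0.21 in EPSCs, 0.09 in NSCs and 0.04 in ESCs, against 0.13, 0.11, 0.06 and 0.05 over all genes. In hybrid cells and in EPSCs alike, 7 of the 10 genes were higher in replicate 1, where 52.8% and 52.7% of all genes were. The fibroblast list also summed higher in hybrid replicate 1, and its part in these gaps was not tested.

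**Figure D4:**
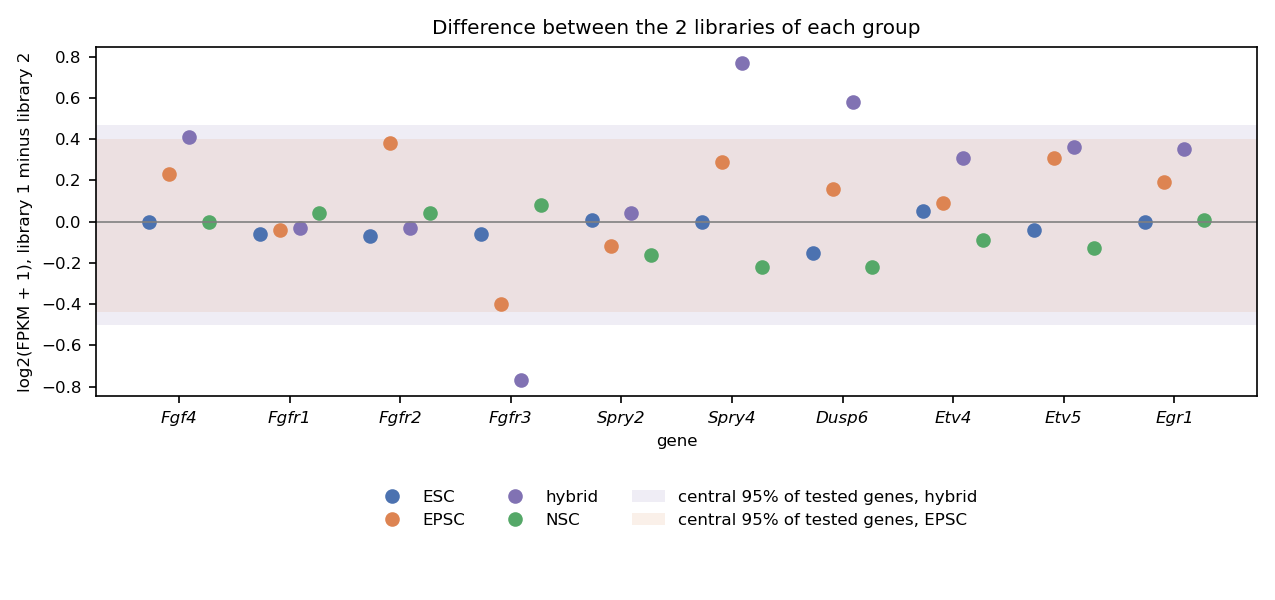
Difference between replicates 1 and 2 of each group in log2(FPKM + 1), one point a gene and group, over bands that hold the central 95% of all tested genes in hybrid cells and in EPSCs. In hybrid cells, Spry4 and Dusp6 lie above their band, which runs from -0.50 to 0.47, and Fgfr3 lies below it.

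The genes most like 4 of the members in profile were sought over the 8 libraries, which fall in 4 groups, so likeness is a description. The gene with the smallest root mean square difference from Fgf4 on the centred log2 scale was Zfp296 (0.22, r = 0.997), followed by Spint2 (0.25, r = 0.996) and the noncoding Lincenc1 (0.29, r = 0.997). Zfp296 means were 111.1 FPKM in ESCs, 101.9 FPKM in EPSCs, 75.4 FPKM in hybrid cells and 0.263 FPKM in NSCs. For Dusp6 it was Etv1 (0.09, r = 0.996), the third ETS factor of the PEA3 group, then Cpt1c (0.13, r = 0.991) and Lrch2 (0.13, r = 0.990). Etv1 means were 28.9 FPKM in NSCs, 8.76 FPKM in hybrid cells, 7.69 FPKM in ESCs and 6.03 FPKM in EPSCs, so it followed Dusp6 in order and not its relatives Etv4 and Etv5. Genes much like Fgfr2 included Sox12 (0.11, r = 0.983) and Tysnd1 (0.12, r = 0.979). Sox12, a transcription factor of the SOX family, had means of 20.8 FPKM in NSCs, 19.2 FPKM in ESCs, 13.1 FPKM in EPSCs and 6.89 FPKM in hybrid cells. For Etv4 they were Rab38 (0.09, r = 0.988), Cstf2t (0.10, r = 0.980) and Bcor (0.10, r = 0.972).

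The rest of the pathway was read from 7 lists of genes, starting with the ligands and the receptors' partners. Of 17 other FGF ligands, 5 passed the filter, with 1 called higher and 1 lower in hybrid cells than in EPSCs and 3 higher and 1 lower than in NSCs. The ligand higher than in EPSCs was Fgf7, which was also 1 of the 3 higher than in NSCs. Fgf7 passed the filter through its hybrid mean of 1.08 FPKM alone, so neither call is support for a change in ligands. The counts of this and the following lists stand beside 22.5% of all genes called higher and 21.9% lower in hybrid cells than in EPSCs, and 44.5% higher and 42.0% lower than in NSCs. Fgf17 was lower in hybrid cells (1.73 ± 1.06 FPKM, SD, n = 2) than in EPSCs (4.70 ± 0.878 FPKM, adjusted p = 0.0127), the same direction as Fgf4. Fgf1 was at 20.6 FPKM in NSCs and 0.274 FPKM in hybrid cells (adjusted p = 2.7e-08), and Fgf15 was at 4.41 FPKM in ESCs and at most 0.238 FPKM on average in the other groups. Among 11 tested genes of other receptors and co-receptors, 5 were higher and 0 lower in hybrid cells than in EPSCs (22.5% and 21.9% of all genes), and 4 were higher and 5 lower than in NSCs, near the shares of all genes. The syndecan Sdc3 was at 171.7 FPKM in NSCs, 5.19 FPKM in hybrid cells and 2.36 FPKM in EPSCs, and the decoy receptor Fgfrl1 at 67.2 FPKM in NSCs and 3.37 FPKM in hybrid cells. The glypican Gpc3 went the other way, at 38.8 FPKM in hybrid cells and 0.186 FPKM in NSCs (adjusted p = 7e-09), whereas the syndecan Sdc2 was at 12.0 FPKM in hybrid cells, 7.72 FPKM in EPSCs and 26.0 FPKM in NSCs.

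The signalling chain below the receptors was represented by 13 kinases and GTPases and 10 adaptors. Of 13 RAS, RAF, MEK and ERK genes, 8 were lower and 1 higher in hybrid cells than in EPSCs, where 21.9% of all genes were lower and 22.5% higher, with medians of -0.36 for the list and 0.00 for all genes. Against NSCs 4 were higher and 8 lower, where all genes gave 44.5% and 42.0%. The ERK gene Mapk3 was at 35.3 ± 3.07 FPKM in hybrid cells and 45.6 ± 0.515 FPKM in EPSCs (SD, n = 2, log2 difference -0.36, adjusted p = 0.0058), and the RAS relatives Rras and Rras2 were lower by -1.02 (adjusted p = 0.00016) and -0.53 (adjusted p = 0.00285). The scaffold Ksr1, at 1.94 FPKM in hybrid cells and 1.28 FPKM in EPSCs, did not pass (adjusted p = 0.116). Of 10 receptor adaptors, 1 was higher, 4 were lower and 5 were not called against EPSCs, and 3 were higher and 6 lower than in NSCs. The phosphatase Ptpn11, which carries the receptor signal to RAS, was at 16.1 FPKM in hybrid cells, 23.2 FPKM in EPSCs and 47.4 FPKM in NSCs, lower than in EPSCs by a log2 value of -0.51 (adjusted p = 0.00157). The adaptor Shc1 stood at 51.5 and 51.3 FPKM in hybrid cells and EPSCs and at 10.6 FPKM in NSCs, and the ubiquitin ligase Cbl at 10.02, 12.1 and 15.3 FPKM in the same order. The exchange factor Sos2 was at 2.16 FPKM in hybrid cells and 9.25 FPKM in NSCs (adjusted p = 3.9e-05).

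Other feedback inhibitors did not move as one. Of 12 tested, 4 were higher and 1 lower in hybrid cells than in EPSCs, and 5 were higher and 6 lower than in NSCs, with medians of 0.08 and -0.59. All genes gave 22.5% higher and 21.9% lower against EPSCs and 44.5% and 42.0% against NSCs, so the counts against NSCs were near the background. Spry1 resembled Spry2 in its NSC peak, at 64.9 FPKM in NSCs, 7.64 FPKM in hybrid cells, 6.48 FPKM in ESCs and 5.77 FPKM in EPSCs, and Spred3 and Nf1 were highest in NSCs too, at 13.0 and 13.9 FPKM. Dusp9, an ERK phosphatase related to Dusp6, ran opposite to it, at 44.3 ± 15.8 FPKM in EPSCs, 35.0 ± 13.4 FPKM in hybrid cells, 19.2 ± 0.216 FPKM in ESCs and 0.202 ± 0.0310 FPKM in NSCs (SD, n = 2). Hybrid cells exceeded NSCs in Dusp9 by a log2 value of 4.85 (adjusted p = 1.5e-06), and the Dusp9 gap to EPSCs did not pass (-0.34, adjusted p = 0.372).

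The other immediate-early and ERK-induced genes, 17 in all, included 11 called lower than NSCs in hybrid cells, 11 in EPSCs and 11 in ESCs, with 4, 5 and 5 higher. Of all genes 42.0%, 41.0% and 41.9% were called lower in those comparisons, which share the NSC libraries. The list's median log2 difference was -1.31, -1.54 and -1.07, beside 0.06, 0.08 and 0.03 for all genes. Egr2 and Egr3, counted in each 11 and in these medians, passed the filter through NSCs alone (7.22 and 10.8 FPKM). Their direction was therefore fixed by the filter. Between hybrid cells and EPSCs 4 were higher and 5 lower. Fos, a component of the AP-1 factor, was at 174.7 FPKM in NSCs, 22.9 FPKM in EPSCs, 18.4 FPKM in hybrid cells and 8.39 FPKM in ESCs, and it was lower in hybrid cells than in EPSCs at adjusted p = 0.048. Ccnd1, the cyclin of the G1 phase, was at 405.3 FPKM in NSCs and 50.7 FPKM in hybrid cells. Egr3, tested through its NSC level alone, was at 10.8 and 0.726 FPKM in the same order. Atf3 was the reverse, at 0.344 FPKM in NSCs, 13.1 FPKM in EPSCs and 8.003 FPKM in hybrid cells, lower in hybrid cells than in EPSCs by -0.64 on the log2 scale (adjusted p = 0.00984).

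The EGF receptor family feeds the same kinases, and NSCs were cultured with EGF. Of its 4 genes, 3 were lower and 1 higher in hybrid cells than in NSCs, and 2 were higher and 1 lower than in EPSCs, where all genes gave 42.0% lower and 44.5% higher against NSCs and 22.5% higher and 21.9% lower against EPSCs. One of the 3 lower genes, Erbb4, passed the filter through NSCs alone (1.35 FPKM) and was listed at 0 in the other libraries, so its direction was fixed by the filter. Egfr was at 77.5 and 80.1 FPKM in NSCs, 2.89 and 2.06 FPKM in hybrid cells, 0.964 and 0.949 FPKM in EPSCs and 1.04 and 0.840 FPKM in ESCs. Hybrid cells were above EPSCs in Egfr by a log2 value of 0.82 (adjusted p = 0.00211) in the group where the fibroblast list was also highest. Erbb3 was at 0.0182 FPKM in NSCs, 6.54 FPKM in EPSCs and 3.804 FPKM in hybrid cells (log2 difference from EPSCs -0.65, adjusted p = 0.0108). Erbb2 was at 5.31 FPKM in NSCs, 2.95 FPKM in hybrid cells and 1.87 FPKM in EPSCs.

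**Figure D5:**
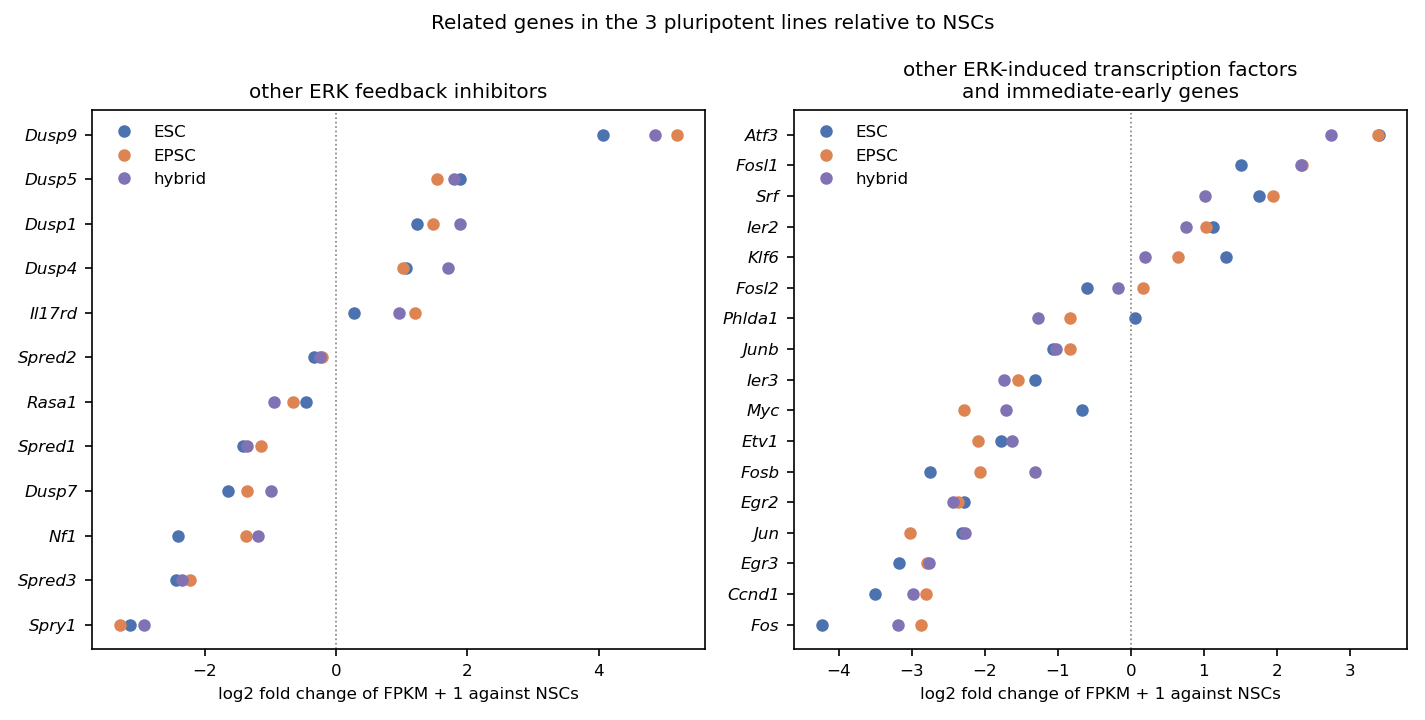
Log2 fold change of FPKM + 1 against NSCs of 12 other feedback inhibitors and 17 other ERK-induced genes, one row a gene, with a point each for ESCs, EPSCs and hybrid cells. The points run from Spry1 and Fos, far below 0, to Dusp9 and Atf3, far above it, and the 3 groups lie on the same side of 0 for most genes.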

How the data were processed

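The 8 libraries, 2 in each of the 4 groups, had been sequenced from poly-A selected, stranded libraries. The authors trimmed the reads, aligned them with STAR 2.7.9a to mm10 and made FPKM with Cuffnorm of Cufflinks 2.2.1, and they deposited these FPKM for each library. The labels number the replicates and do not say whether cells or RNA were pooled. The annotation, the strand setting and the scaling between libraries are not given in the sources used here.

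FPKM were compared as log2(FPKM + 1) with limma 3.58.1 in R 4.3.3 (4 groups in one fit, eBayes with trend, two-sided, 4 residual and 3.25 prior degrees of freedom). A gene was called at a Benjamini-Hochberg adjusted p under 0.05 over the 13239 genes with a mean of at least 1 FPKM in at least 1 group. The adjusted p-values in the text are from this fit unless another setting is named. Fold changes on that scale understate those of low genes. The fit was also tested on simulated data, with an outcome that is not given here and that no result rests on. Depth was inferred with an assumed fragment length of 200 nucleotides from 2247 genes with 1 transcript. Tables and figures were made with Python 3.11.15.

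The members, pathway lists and marker lists were chosen with earlier results of these data known. By rule, all 10 members were named, up to 4 genes of each list with the widest range of group means among those with a mean of at least 3 FPKM in a group, and the 3 genes most like Fgf4, Fgfr2, Dusp6 and Etv4, of which 1 is not reported here. TATATA and GGAA were added to the motifs after the sequences were read. Positions come from RefSeq on GRCm38, which matched all 10 members.

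Alternatives covered the constant added before the logarithm, the filter, 3 scalings (to a sum of 1000000, median of ratios, quantile), the groups in the fit, the trend, the replicate block, the fold threshold, the receptors in the sum and each library left out in turn.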

Additional observations from a re-analysis of the deposited data

How the results depend on the processing

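With 2 libraries of 1 line a group, and depth known only by inference, the calls rest on a spread shared over groups. Of the values of single genes under alternatives, 983 kept direction and call, 46 gained a call, 30 lost it and 21 reversed. Nothing in the sources used here says that equal replicate numbers mark a shared culture or day (r of same-numbered deviations between -0.112 and 0.28, the latter in hybrid cells against EPSCs), and with the replicate block hybrid cells against EPSCs called Fgfr3 too (adjusted p = 0.0297). The block also added calls of Fgfr3 and Egr1 in EPSCs against ESCs (adjusted p = 0.0406 and 0.0464), of Egr1 in hybrid cells against ESCs (0.0357) and of Etv5 in ESCs against NSCs (0.0417), and changed no other call of a member.

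With only the 2 groups compared, 3 members were called in hybrid cells against EPSCs (21.2% of all genes) and 8 in EPSCs against ESCs (60.8%). With the fold rule set at 2, 2 members passed in hybrid cells against EPSCs and 2 against ESCs. The share of all genes past that rule is not given here, so these counts stand without a background. Leaving out each library in turn gave 4 to 9 members called in hybrid cells against EPSCs, 8 to 9 in hybrid cells against NSCs, 7 to 9 in EPSCs against NSCs, 7 to 8 in ESCs against NSCs, 4 to 9 in EPSCs against ESCs and 4 to 7 in hybrid cells against ESCs. The share of all genes called is given above for only some of these fits, so the ranges cannot be called many or few. Without Fgfr4 in the sum, Fgfr1 made up 73.8% in ESCs and 79.7% in EPSCs, and Fgfr2 23.5% in ESCs and 6.25% in hybrid cells.

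Scaling to a sum of 1000000 reversed log2 differences from NSCs to -0.01 (Etv4) and -0.32 (Etv5) in hybrid cells, to -0.34 (Etv4) in EPSCs and to -0.39 (Fgfr2), -0.31 (Spry4) and -0.22 (Etv5) in ESCs. That scaling moved the median gene by a like amount (to between -0.50 and -0.46), and relative to it each of these 6 kept the direction it had as deposited (0.50 and 0.19, 0.14, and 0.07, 0.16 and 0.24). Quantile normalization reversed them to -0.22 (Etv5, hybrid cells), -0.02 (Etv4, EPSCs) and -0.04 (Etv5, ESCs). Spry2 in hybrid cells against ESCs became -0.05 with the sum, -0.03 with quantile and -0.02 with median-of-ratios scaling. Leaving out 1 library at a time, differences that reversed ranged from -0.16 (without hybrid replicate 1) to 0.19 for Egr1 in hybrid cells against EPSCs, from -0.56 to 0.21 (without hybrid replicate 2) for Spry4 in hybrid cells against NSCs, and from -0.17 to 0.15 (without EPSC replicate 2) for Etv5 in EPSCs against NSCs. Egr1 was also at -0.08 without EPSC replicate 2, and Etv5 at 0.06 without NSC replicate 2. In hybrid cells against ESCs the ranges were -0.49 to 0.28 (without hybrid replicate 1) for Fgfr3, -0.01 (without hybrid replicate 1) to 0.03 for Spry2, -0.09 (without hybrid replicate 1) to 0.48 for Dusp6 and -0.20 to 0.16 (without hybrid replicate 2) for Etv5. The cause of the other reversals was not tested.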
